A study of Mus musculus with 35 samples.

Results

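Transcripts of 10 RNA-binding regulators of neural splicing and RNA stability were followed across the major cell populations of the developing mouse brain. The genes were taken by name: Elavl1, Elavl2, Elavl3 and Elavl4, Ptbp1, Ptbp2 and Ptbp3, Nova1 and Nova2, and Rbfox2. All 10 were found among the 53465 genes of the bulk table and in the single-cell tables. The study dissociated wild-type E14.5 brains and sorted neural, mural, endothelial and microglial cells by surface proteins. Neural cells were negative for every marker used, mural cells (pericytes and smooth muscle of vessels) were high for PDGFRβ, endothelial cells carried PECAM1 and CD102, and microglia carried intermediate CD45 with CD11b in the bulk sorts or, as the deposited list of wells gives it, with CD41 in the plates. Each population was sequenced in bulk from 3 numbered brains (neural libraries N-340, N-343, N-346, with the prefixes Mu, Ec and Mi for mural, endothelial and microglial libraries), which gave 12 libraries listed below in this order, and single cells of the same populations were sequenced on 3 wild-type plates.

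RNA-binding proteins of these families read short sequence elements in pre-mRNA and mRNA. Elavl2, Elavl3 and Elavl4 encode the neuronal ELAV-like proteins, which bind AU- and U-rich elements and are classical markers of neurons, whereas Elavl1 encodes HuR, the family member made in most cell types. Ptbp1 encodes the polypyrimidine tract binding protein, a repressor of neural exons that is typical of non-neuronal cells and neural progenitors, and Ptbp2 encodes its neural paralog. Ptbp3 encodes another paralog, known from blood cells. Nova1 and Nova2 bind YCAY elements and Rbfox2 binds a GCAUG element, and all of them act on alternative exons of the nervous system.

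The bulk libraries held 17638358 to 98414914 reads on genes. The neural libraries were made with another extraction kit and another library kit (TruSeq) than the mural, endothelial and microglial libraries (SMART-Seq v4 with Nextera XT), so kit and neural identity cannot be told apart in bulk. In bulk samples, fewer cells of a type and less RNA per cell cannot be told apart either. The sorted identities were visible in marker genes: summed over 12 neuron markers, the neural libraries held 146278 to 157795 normalized counts and the other 9 libraries at most 8785. The mural, endothelial and microglial marker lists (8 genes each) stood at 707209 to 762599, 167739 to 202214 and 295335 to 348359 in their own libraries, and at most at 7141, 11724 and 111 in the others. The plates kept 686 wild-type cells with more than 1500 transcripts, 123 neural, 210 mural, 225 endothelial and 128 microglial, and only 43 of them came from plate 3. The libraries of a plate all use the same set of well barcodes by design. The 13 endothelial cells of plate 3 stood apart, with 3067 TPM of mural markers against 489 and 112 on plates 1 and 2 (TPM, transcripts per 1000000 transcripts of the same cells), so the pairwise results of the endothelial gate that turn on Nova2 and Elavl4 are also given without plate 3.

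Promoter windows of 4 genes are shown because the results turn on them: Elavl3 separated neural from other cells most plainly among the ELAV-like genes, Ptbp1 and Ptbp2 form the paralog pair with different profiles, and Nova2 was found in a second population. Each window runs from 250 bases before to 50 bases after the start of a RefSeq transcript (GRCm38.p6), 5′ to 3′ on the strand of the gene, and capitals mark a CCAAT box (CCAAT) or a GC box (GGGCGG) on either strand, with overlapping matches counted separately.
Elavl3 (chr9:22051974-22052273, minus strand): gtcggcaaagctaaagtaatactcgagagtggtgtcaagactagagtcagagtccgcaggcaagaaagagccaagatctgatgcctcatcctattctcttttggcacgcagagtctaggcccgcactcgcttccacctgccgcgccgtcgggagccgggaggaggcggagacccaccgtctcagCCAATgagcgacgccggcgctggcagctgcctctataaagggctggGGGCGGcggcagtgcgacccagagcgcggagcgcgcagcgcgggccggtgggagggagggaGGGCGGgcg
Ptbp1 (chr10:79854182-79854481, plus strand): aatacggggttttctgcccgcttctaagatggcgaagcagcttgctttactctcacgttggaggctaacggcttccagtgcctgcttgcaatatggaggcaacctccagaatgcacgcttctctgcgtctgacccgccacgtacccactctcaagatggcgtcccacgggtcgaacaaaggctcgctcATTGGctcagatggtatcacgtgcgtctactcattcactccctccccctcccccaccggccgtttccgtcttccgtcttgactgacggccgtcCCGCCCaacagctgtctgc
Ptbp2 (chr3:119783339-119783638, minus strand): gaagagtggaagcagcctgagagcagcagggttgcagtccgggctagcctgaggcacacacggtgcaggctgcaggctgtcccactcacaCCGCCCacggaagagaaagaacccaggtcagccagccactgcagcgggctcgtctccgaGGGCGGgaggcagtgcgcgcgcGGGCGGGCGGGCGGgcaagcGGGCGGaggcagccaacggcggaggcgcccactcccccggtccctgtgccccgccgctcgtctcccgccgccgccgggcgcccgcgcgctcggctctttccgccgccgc
Nova2 (chr7:18925638-18925937, plus strand): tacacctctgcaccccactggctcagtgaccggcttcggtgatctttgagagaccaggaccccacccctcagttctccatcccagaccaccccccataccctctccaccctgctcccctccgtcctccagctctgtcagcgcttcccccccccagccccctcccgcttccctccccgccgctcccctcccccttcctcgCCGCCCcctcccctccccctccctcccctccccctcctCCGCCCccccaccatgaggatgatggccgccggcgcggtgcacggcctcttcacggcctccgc
The Ptbp2 window held 6 GC boxes and no CCAAT box, and 74.7% of its bases were G or C. The Ptbp1 window held 1 box of each kind at 58.3% G or C. The Elavl3 window held 2 GC boxes, 1 CCAAT box and 1 TATAAA, and the Nova2 window held 2 GC boxes and none of the other motifs searched. Among all 32851 RefSeq windows of this length, 35.7% held a GC box, 37.4% a CCAAT box and 13.6% a TATAAA, and the median content of G or C was 52.7%. The E-box CANNTG was matched 3 times in the Ptbp1 window and 2 times in the Elavl3 window, and 72.3% of all windows held it. Windows were present for 8 of the 10 genes.

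The paralogs are distinct enough for their reads to be separated. Of all 50-base words in the annotated transcripts of each gene (GENCODE vM21), none was shared between members of the ELAV-like family, between the Ptbp genes or between the Nova genes, and Elavl3 and Nova2 shared 2 words with each other. Sharing with other genes was larger for 2 members. In Nova2, 30.8% of the words were also found in another gene, mainly in the opposite-strand lincRNA Gm26821, which was nearly silent at a mean of 1.25 normalized counts. In Ptbp1, 18.3% of the words were shared, and its exons overlapped those of the opposite-strand gene Plppr3 by 251 bases. Plppr3 had a mean of 11481 normalized counts in neural libraries and of 189, 486 and 241 in mural, endothelial and microglial libraries. The strand setting of the counting is not given in the sources used here, so reads over this overlap cannot be assigned to either gene.

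In bulk, the neural population was set against the mean of the other 3 populations (limma on log2(normalized count + 1), adjusted over 19765 genes). Of the 10 genes, 8 were higher in neural libraries, Ptbp3 was lower, and Elavl1 did not pass the threshold. Among all genes tested, 32.9% were called higher and 31.2% lower in this contrast, so a call as such is common here. The size of the differences was less common: Elavl2, Elavl3, Elavl4, Nova1, Nova2 and Rbfox2 were more than 10-fold higher, as were 13.8% of all genes, and Ptbp2 lay just under this mark at 9.22-fold. The median log2 difference was 4.20 over the 10 genes and 0.09 over all genes tested.

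**Figure D1:**
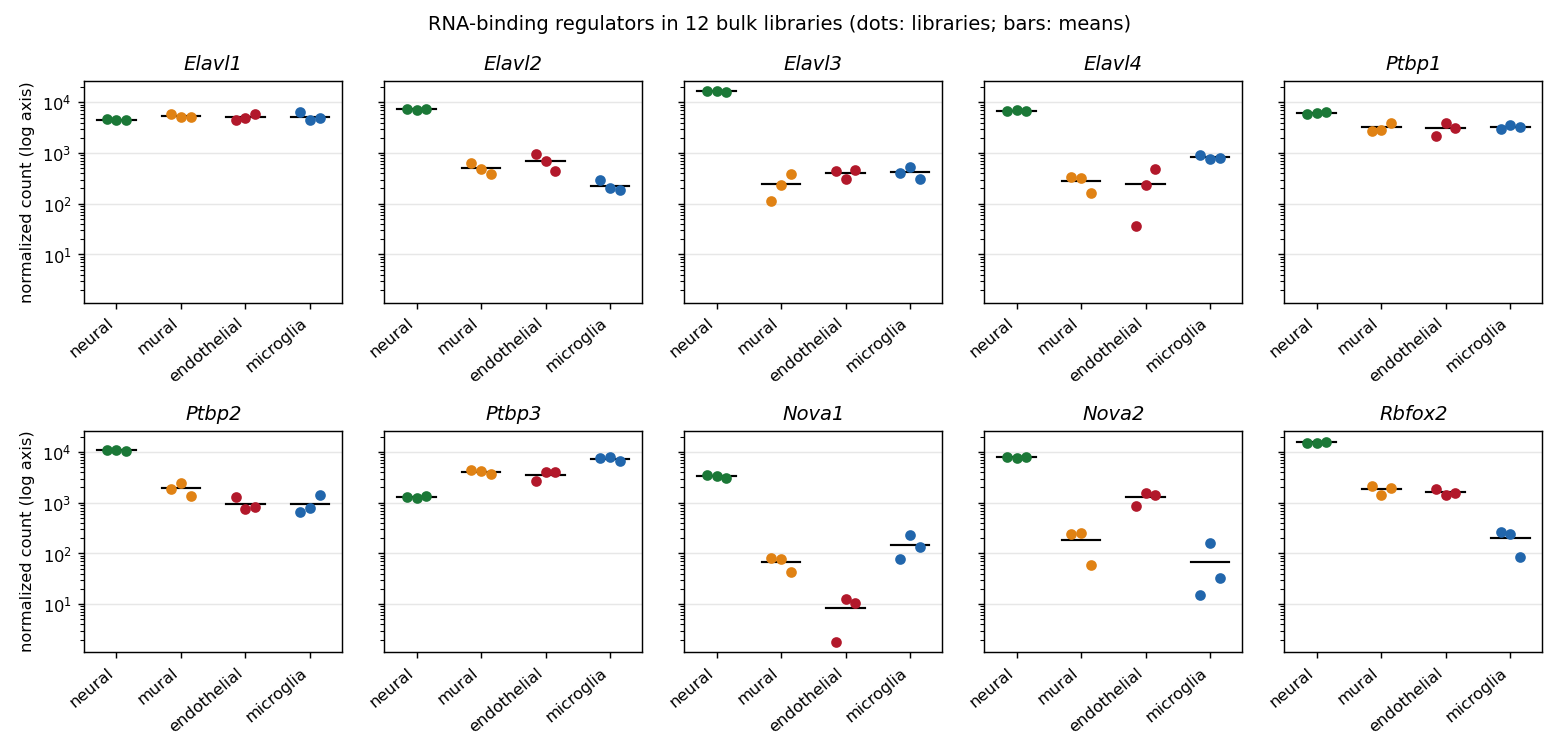
Normalized counts (log axis) of the 10 genes in the 12 bulk libraries, by population. Dots are libraries and bars are means. In neural libraries, 8 genes lie above every other library, Ptbp3 lies below every other library and Elavl1 is level across the populations. The share of all genes separated in this way was not counted, while 32.9% were called higher and 31.2% lower.

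Elavl3 (ENSMUSG00000003410, chr9:22015005-22052023, minus strand) was the most abundant of the neuronal ELAV-like genes in neural libraries, also per kilobase. Its normalized counts were 16666, 16504 and 16334 in neural libraries, 112, 231 and 391 in mural, 439, 307 and 465 in endothelial and 399, 541 and 308 in microglial libraries. The neural libraries were thus well separated, while the other 3 populations overlapped with each other. The log2 difference was 5.65 ± 0.32 (SE, adjusted p = 1.1e-07), a 50.4-fold change on the log2(normalized count + 1) scale.

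Elavl2 (ENSMUSG00000008489, chr4:91250763-91400785, minus strand) reached 7246, 7183 and 7558 in neural libraries. Endothelial libraries with 941, 710 and 437 and mural libraries with 635, 486 and 393 overlapped, and microglial libraries lay below both with 288, 203 and 186. The neural log2 difference was 4.13 ± 0.24 (SE, adjusted p = 1.4e-07), and the mural level exceeded the microglial level by 1.16 ± 0.30 (SE, adjusted p = 0.00996). The 12 neuron markers summed to 3571 to 8785 in mural, 3337 to 4522 in endothelial and 2849 to 4400 in microglial libraries. Their part in the mural difference was not tested.

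Elavl4 (ENSMUSG00000028546, chr4:110203722-110351909, minus strand) had 6827, 7044 and 6832 normalized counts in neural libraries. Among the others, microglia were highest with 918, 760 and 803, mural libraries had 341, 325 and 164, and endothelial libraries spread from 37.2 over 230 to 478. The neural log2 difference was 4.40 ± 0.58 (SE, adjusted p = 6.8e-05). Endothelial libraries lay below microglia by a log2 difference of -2.35 ± 0.71 (SE, adjusted p = 0.0265), a call that was lost when any of the 3 microglial libraries was left out (adjusted p = 0.0608 to 0.0731) and on whole reads (adjusted p = 0.0624). The step from microglia to mural libraries did not pass the threshold (adjusted p = 0.0940) although the libraries did not overlap, and did so without Ec-340 or Ec-346 (0.00261 and 0.0396).

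Elavl1 (ENSMUSG00000040028, chr8:4285382-4325413, minus strand) was level. Neural libraries had 4681, 4507 and 4571, mural 5828, 5067 and 5259, endothelial 4456, 4992 and 5912 and microglial 6445, 4516 and 4808. Each population overlapped with its neighbour in the order of means, and the neural log2 difference was -0.19 ± 0.12 (SE, adjusted p = 0.201). Per kilobase of exon, Elavl1 made up 64.1% to 79.1% of the summed ELAV-like level in the 9 non-neural libraries and 8.69% to 9.02% in neural libraries. There, Elavl3 held 47.5% to 48.3%, Elavl4 25.3% to 26.1% and Elavl2 17.3% to 18.2%.

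The Ptbp genes divided in another way. Ptbp2 (ENSMUSG00000028134, chr3:119718742-119784466, minus strand) had 11109, 10756 and 10440 normalized counts in neural libraries. Mural libraries followed with 1895, 2509 and 1385, then endothelial libraries with 1292, 762 and 837 and microglial libraries with 666, 791 and 1404. The neural log2 difference was 3.20 ± 0.25 (SE, adjusted p = 1.2e-06), and endothelial and microglial levels overlapped. The mural level exceeded the endothelial level by 1.0 ± 0.31 (SE, adjusted p = 0.0326), a call lost without any 1 of the neural libraries or of Mu-340, Mu-343, Ec-343 and Ec-346 (adjusted p = 0.0516 to 0.113), without a minimum level (0.0570) and with the brain number as a block (0.0595). It exceeded the microglial level by 1.05 ± 0.31 (SE, adjusted p = 0.0191), and this call was lost without Mu-343, Mi-340 or Mi-343 (adjusted p = 0.0672 to 0.0740). Progenitor markers (10 genes summed) stood at 38555 to 57363 in mural, 23090 to 26752 in endothelial and 9820 to 12873 in microglial libraries. In this sum, Fabp7 and Hes1 had mural means of 26942 and 8494. The part of progenitor transcripts in the mural Ptbp2 calls was not tested.

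Ptbp3 (ENSMUSG00000028382, chr4:59471868-59549364, minus strand) ran opposite to Ptbp2. Microglia had the highest values, 7642, 7963 and 6660, mural libraries had 4423, 4141 and 3776, endothelial libraries 2734, 3989 and 4069, and neural libraries 1313, 1239 and 1335. Mural and endothelial libraries overlapped, and the microglial and neural libraries stood clear above and below them. The neural log2 difference was -1.88 ± 0.13 (SE, adjusted p = 4.7e-07), and microglia exceeded mural libraries, with mural minus microglial at -0.85 ± 0.16 (SE, adjusted p = 0.00145).

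Ptbp1 (ENSMUSG00000006498, chr10:79854427-79864771, plus strand) was higher in neural bulk libraries, with 5921, 6213 and 6481. Mural libraries had 2768, 2826 and 3995, endothelial libraries 2165, 3884 and 3185 and microglial libraries 3045, 3597 and 3267, and these 3 populations overlapped. The log2 difference was 0.98 ± 0.17 (SE, adjusted p = 4.8e-04), or 1.97-fold. Per kilobase, the ratio of Ptbp2 to Ptbp1 was 0.832 to 0.969 in neural libraries and 0.101 to 0.459 in all others. Ptbp3 supplied 51.4% to 58.8% of the summed Ptbp level in microglia, per kilobase, and 6.26% to 6.66% in neural libraries.

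In the single cells, where all gates of a plate share the same chemistry, Ptbp1 went the other way. Transcripts were summed per plate and gate and tested with the quasi-likelihood test of edgeR over 9281 genes. Ptbp1 had 44.3, 45.0 and 76.6 TPM in the neural gate on plates 1, 2 and 3. The mural gate had 116, 124 and 124, the endothelial gate 148, 105 and 128 and the microglial gate 110, 106 and 59.1. The neural sums lay below all others except the microglial sum of plate 3, which rests on 6 cells. The log2 difference was -1.39 ± 0.28 (SE, adjusted p = 5.3e-05), or 2.62-fold lower. It was -1.68 without plate 3 and kept its sign without plate 1 or plate 2, but no longer passed the threshold there (adjusted p = 0.0969 and 0.0561). A Ptbp1 transcript was found in 32 of 123 neural cells (26.0%, exact 95% interval 18.5% to 34.7%) and in 74 of 128 microglia (57.8%, 48.8% to 66.5%). The bulk and the cell contrast of Ptbp1 thus have opposite signs. The parts of kit, counting scheme and the overlap with Plppr3 in this were not tested.

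**Figure D2:**
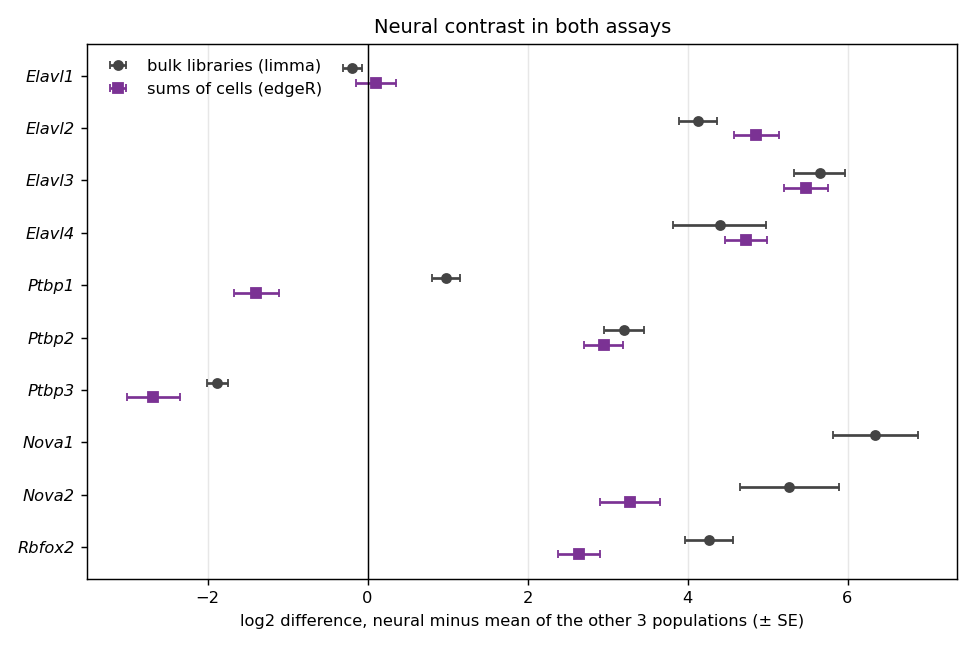
Log2 differences (± SE) between neural cells and the mean of the other 3 populations, for bulk libraries (limma) and for sums of cells per plate and gate (edgeR). Ptbp1 passed the threshold with opposite signs, at 0.98 in bulk and -1.39 in cells, Elavl1 (-0.19 and 0.11) passed it in neither, and Nova1 was not tested in cells.

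The other genes of the cell contrast kept the sign of their bulk contrast where both passed the threshold. Of the 10 genes, 9 passed the filter on low counts, 6 were higher in the neural gate, and Ptbp1 and Ptbp3 were lower, beside 22.5% higher and 17.3% lower among all genes tested. The counts are a description of the same populations in a second assay. Elavl3 had 570, 780 and 548 TPM on the neural plates and at most 42.8 in any other sum. Its log2 difference was 5.48 ± 0.27 (SE, adjusted p = 1.7e-24). Elavl4 (468, 495 and 395 TPM in the neural gate) and Elavl2 (330, 308 and 241 TPM) differed by 4.73 ± 0.26 and 4.86 ± 0.28 (SE, adjusted p = 3.6e-23 and 3.9e-22). Ptbp2 had 261, 213 and 153 TPM in the neural gate and at most 55.4 elsewhere, a log2 difference of 2.95 ± 0.24 (SE, adjusted p = 8.5e-16). Ptbp3 had 35.4, 47.3 and 43.8 TPM in the neural gate against 114 to 384 elsewhere, a log2 difference of -2.68 ± 0.33 (SE, adjusted p = 6.6e-10).

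Elavl1 stayed level in the cells too, at 91.2, 76.7, 78.6 and 81.7 TPM over the pooled neural, mural, endothelial and microglial cells, with a log2 difference of 0.11 ± 0.25 (SE, adjusted p = 0.780) whose sign turned without plate 3 (-0.11). The ratio of Ptbp2 to Ptbp1 transcripts was 5.90, 4.74 and 2.0 on the neural plates and at most 0.479 in any other sum. The ratio of Ptbp3 to Ptbp1 was 3.33 to 3.63 in the microglial gate, above the range of 0.571 to 2.0 in all other gates.

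**Figure D3:**
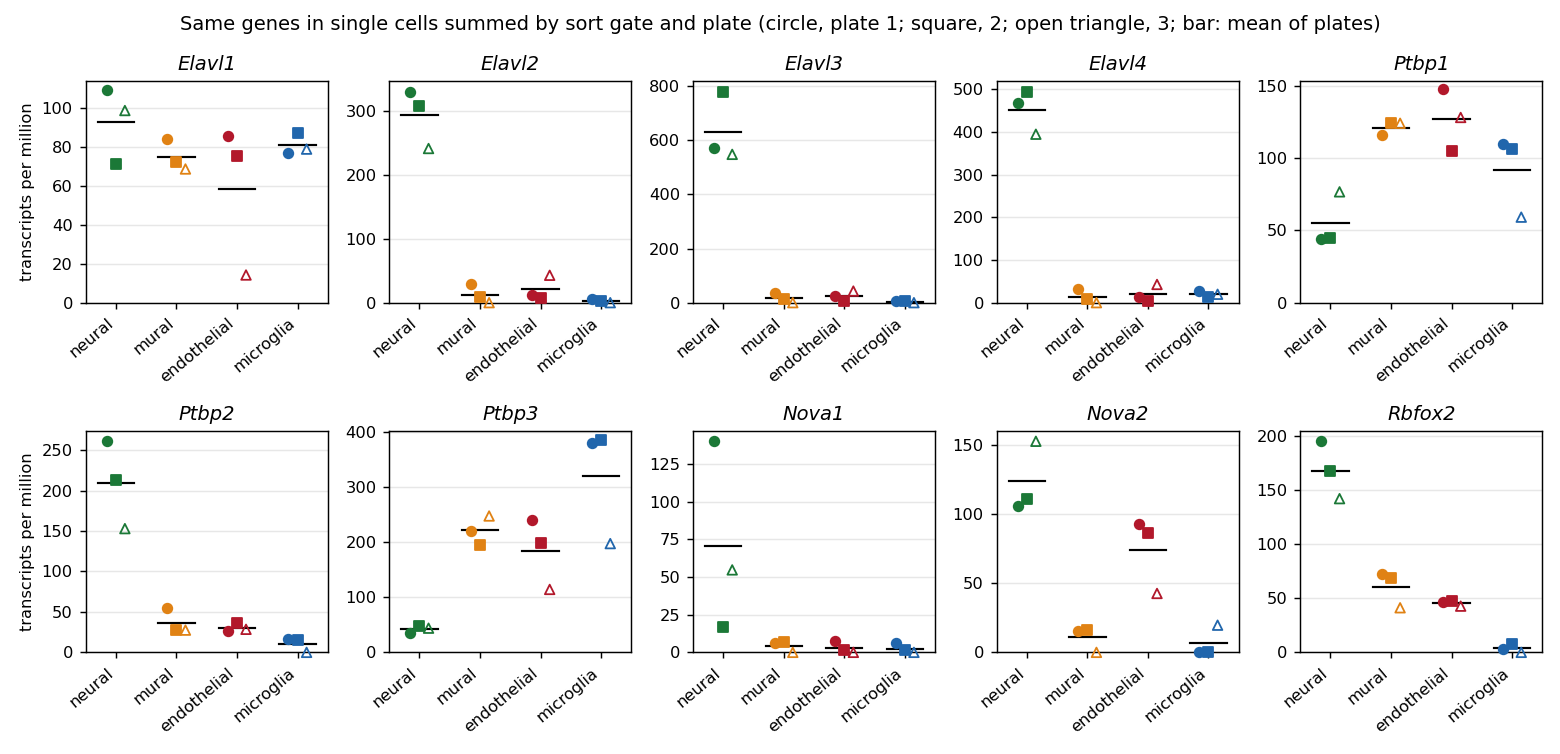
TPM of the 10 genes in the neural, mural, endothelial and microglial gates, with 1 point for the pooled cells of each plate and bars for means over plates. Nova2 is high in the neural and the endothelial gates, and the mean of Ptbp3 is lowest in the neural and highest in the microglial gate. The neuronal ELAV-like genes are near 0 outside the neural gate.

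Nova2 (ENSMUSG00000030411, chr7:18925888-18965319, plus strand) had a second population. Neural libraries had 8143, 7513 and 8135 normalized counts. Endothelial libraries followed with 877, 1550 and 1412, and mural libraries with 241, 257 and 59.2 and microglial libraries with 15.5, 159 and 32.7 were lower and overlapped. Mural minus endothelial was -3.0 ± 0.76 (SE, adjusted p = 0.0134) and endothelial minus microglial 4.80 ± 0.76 (SE, adjusted p = 5.6e-04), both within the same kit. The neural libraries exceeded the endothelial libraries by 2.67 (adjusted p = 0.0113).

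In the cells, Nova2 had 106, 111 and 153 TPM in the neural gate and 92.8, 86.4 and 42.7 in the endothelial gate. The difference between these gates was 0.32 ± 0.31 (SE, log2, adjusted p = 0.447) and 0.01 ± 0.25 without plate 3 (adjusted p = 0.994), which does not show that the levels are alike. The mural gate had 15.8, 16.5 and 0, and the microglial gate held a single Nova2 transcript in 128 cells. Mural minus endothelial was -2.60 ± 0.39 (SE, adjusted p = 2.1e-07, and 0.146 with DESeq2), and -2.53 ± 0.31 without plate 3 (SE, edgeR adjusted p = 9.6e-08). A Nova2 transcript was found in 91 of 225 endothelial cells (40.4%, exact 95% interval 34.0% to 47.2%) and in 56 of 123 neural cells (45.5%, 36.5% to 54.8%), at median depths of 6408 and 7717 transcripts per cell. Thinned to 1500 transcripts per cell, the shares were 12.9% and 12.2%.

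Neuron transcripts in the endothelial gate were far fewer. Over 12 neuron markers, the endothelial level was 2.14% of the neural level in the median and 8.80% at most (Gad2), and that of Elavl3 was 2.91%, while that of Nova2 was 78.1%. Without plate 3, Nova2 stood at 83.0% and the markers at a median of 1.98% and at most 8.21%. An Elavl3 transcript was found in 14 of 225 endothelial cells (6.22%, exact 95% interval 3.44% to 10.2%). In bulk endothelial libraries, Nova2 stood at 16.1% of the neural level and the 12 markers at a median of 2.0% and at most 10.4% (Stmn2).

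**Figure D4:**
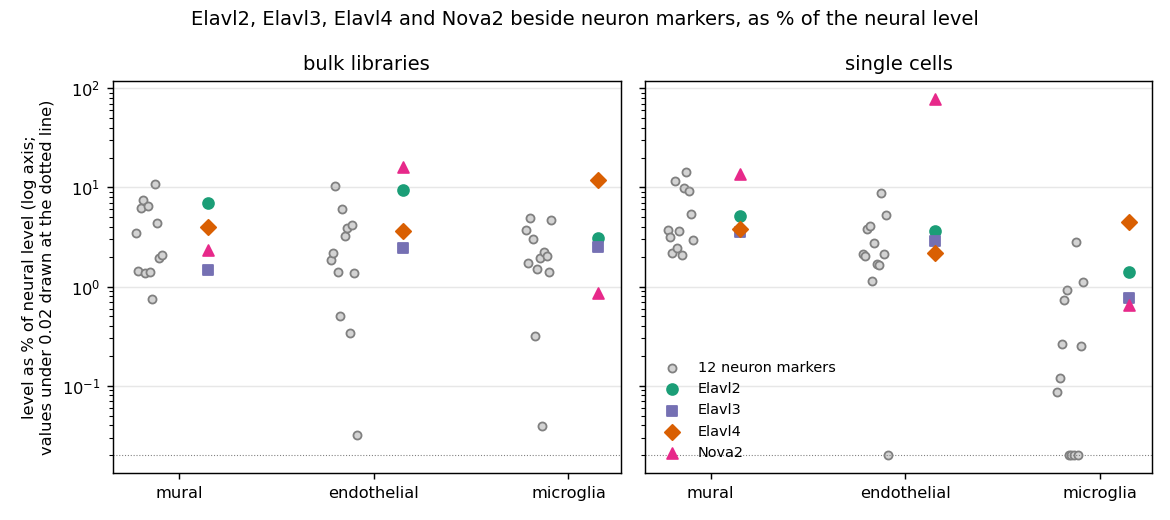
Level in mural, endothelial and microglial populations as a percentage of the neural level (log axis), in bulk libraries and in single cells, for 12 neuron markers (grey) and for Elavl2, Elavl3, Elavl4 and Nova2. Nova2 in endothelial cells (78.1%) and Elavl4 in microglia (12% in bulk, 4.48% in cells) lie above all 12 markers of their column.

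Elavl4 in microglia was also above the neuron markers. Its bulk level was 12% of the neural level, against a median of 1.97% and at most 4.86% for the 12 markers, and 2.52% for Elavl3. In the cells, the microglial gate had 28.1, 14 and 19.7 TPM, 4.48% of the neural level, against a median of 0.185% and at most 2.82% for the markers. The ratio of Elavl4 to Elavl3 transcripts was 4.14 in the microglial gate, from 29 and 7 transcripts, and 0.531 to 0.778 in the other gates. In bulk the ratio, per kilobase, did not set microglia apart, with 1.80 to 3.33 in microglial and 0.538 to 3.88 in mural libraries. An Elavl4 transcript was found in 17 of 128 microglia (13.3%, exact 95% interval 7.93% to 20.4%), 10 of 225 endothelial cells (4.44%) and 10 of 210 mural cells (4.76%), and microglia were the deepest cells with a median of 10761 transcripts. Thinned to 1500 transcripts per cell the order of these shares turned, with 1 of 128 microglia (0.781%), 6 of 225 endothelial cells (2.67%) and 4 of 210 mural cells (1.90%), so no order is read from them. The endothelial minus microglial difference in the cells was -1.18 ± 0.56 (SE, log2, adjusted p = 0.0939), and -1.39 without plate 3 (adjusted p = 0.0342).

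Nova1 (ENSMUSG00000021047, chr12:46694517-46818929, minus strand) was low outside the neural population. It had 3475, 3331 and 3134 normalized counts in neural libraries, 78.5, 234 and 133 in microglial, 81.7, 76.5 and 42.3 in mural and 1.77, 12.8 and 10.6 in endothelial libraries. The neural log2 difference was 6.35 ± 0.53 (SE, adjusted p = 1.9e-06). Endothelial libraries were lowest, without overlap, and lay below the mural libraries (mural minus endothelial 3.10 ± 0.64, SE, adjusted p = 0.00451), the reverse of the order seen for Nova2. In the endothelial libraries 1 read was worth 1.77, 1.42 and 1.51 normalized counts, so these values lie near the floor. In the cells, Nova1 did not pass the filter on low counts. It had 140, 16.6 and 54.7 TPM on the neural plates, a wide spread, and at most 7.30 in any other sum, the endothelial sum of plate 1. The pooled mural, endothelial and microglial gates had 6.45, 4.80 and 3.65 TPM, from 10, 8 and 5 transcripts. The endothelial gate was thus not lowest, and no order is read from so few transcripts.

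Rbfox2 (ENSMUSG00000033565, chr15:77078990-77307004, minus strand) was present in neural and vascular populations and low in microglia. Neural libraries had 15367, 15330 and 16004 normalized counts. Mural libraries with 2169, 1398 and 1987 and endothelial libraries with 1905, 1410 and 1585 overlapped, and microglial libraries had 263, 245 and 84.3. The neural log2 difference was 4.27 ± 0.30 (SE, adjusted p = 5.6e-07), and mural minus microglial was 3.36 ± 0.37 (SE, adjusted p = 3.3e-05). In the cells, the neural gate had 195, 168 and 142 TPM, the mural gate 72.8, 68.5 and 41.2, the endothelial gate 46.9, 47.1 and 42.7 and the microglial gate 2.96, 7.77 and 0. In both assays neural values lay above and microglial values below the mural and endothelial values, which were not told apart (adjusted p = 0.785 in bulk and 0.437 in cells). Mural minus microglial was 3.37 ± 0.49 (SE, adjusted p = 4.9e-08). A transcript was found in 56.9% of neural, 35.2% of mural, 25.3% of endothelial and 5.47% of microglial cells.

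The 3 populations that share a kit were compared in pairs in bulk, and the same pairs were added in the cells after the bulk values had been seen. Between mural and endothelial libraries, 3 of 10 genes were called (Ptbp2 and Nova1 higher in mural, Nova2 lower), beside 27.8% of all genes. In the cells 1 of 9 was called (Nova2), beside 20.7%. Between mural and microglial libraries, 4 of 10 were called (Ptbp2, Elavl2 and Rbfox2 higher in mural, Ptbp3 lower), beside 38.0%. In the cells 4 of 9 were called (Elavl3, Nova2 and Rbfox2 higher in mural, Ptbp3 lower), beside 37.7%. Between endothelial and microglial libraries, 6 of 10 were called (Elavl2, Nova2 and Rbfox2 higher in endothelial, Ptbp3, Elavl4 and Nova1 lower), beside 32.4%, and in the cells 4 of 9 (Elavl3, Nova2 and Rbfox2 higher in endothelial, Ptbp3 lower), beside 36.2%. The members' shares lay above that of all genes for endothelial against microglial libraries, below it for mural against endothelial cells and close to it in the other pairs, and with 9 or 10 genes nothing is read from them. Neuron markers moved with the Elavl3 differences, at 54.9 to 249 TPM over the mural plates, 55.0 to 200 over the endothelial and 0 to 18.6 over the microglial plates (12 genes summed), and their part in them was not tested. Neither Elavl3 difference in the cells was called without plate 1 (adjusted p = 0.515 and 0.530), with DESeq2 (0.0519 and 0.0615) or with thinning (0.208 and 0.0891), and the endothelial minus microglial one was also lost without the filter (0.0700) and at a higher minimum of transcripts per cell (0.149). Neither Ptbp3 difference was called without plate 1 or without plate 2 (adjusted p = 0.272 to 0.402), without the filter (0.0502 and 0.0642) or with DESeq2 (0.0988 and 0.111), and the mural minus microglial one was also lost with thinning (0.129). The mural minus microglial difference of Nova2 was likewise not called without plate 1 or plate 2 (adjusted p = 0.123 and 0.175) or with DESeq2 (0.128). The endothelial minus microglial call of Nova2 was kept without plate 3 (adjusted p = 1.8e-11), where the microglial gate held no Nova2 transcript, so no fold is given.

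The neural gate holds both progenitors and neurons. Its 123 cells were divided by marker transcripts: 38 had more transcripts of 10 progenitor markers (among them Sox2 and Pax6) than of the 12 neuron markers and are called progenitor-like, 84 had the reverse and are called neuron-like, and 1 had neither in excess. In 10 cells the counts lay within 2-fold of each other. The median depths were 8125 and 7698 transcripts. The values below are a description, without a test.

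Elavl3 and Rbfox2 were higher in neuron-like cells on every plate. Elavl3 had 238, 172 and 200 TPM in progenitor-like cells of plates 1, 2 and 3, and 743, 971 and 967 in neuron-like cells. Elavl4 went from 303, 293 and 321 to 554, 556 and 483, and Rbfox2 from 103, 80.8 and 100 to 243, 196 and 193. The pooled ratios of neuron-like to progenitor-like cells were 4.13 for Elavl3, 2.28 for Rbfox2 and 1.82 for Elavl4.

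Elavl2 was close in both classes (pooled ratio 1.19) and its plates differed in direction. Nova2 had 38.6 and 40.4 TPM in progenitor-like cells of plates 1 and 2 and 142 and 134 in neuron-like cells. On plate 3, with 5 and 9 cells in the classes, it had 220 and 72.5, so the pooled ratio was 1.93 with plate 3 and 3.51 without it. Nova1 transcripts in neuron-like cells came mostly from plate 1 (193 TPM, against 15.5 on plate 2 and 72.5 on plate 3).

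Ptbp1 was lower in neuron-like cells on every plate, with 77.2, 80.8 and 120 TPM in progenitor-like and 27.0, 34.2 and 24.2 in neuron-like cells. The pooled ratio was 0.355 and rested on 26 and 20 transcripts. Ptbp1 was detected in 17 of 38 progenitor-like cells (44.7%, exact 95% interval 28.6% to 61.7%) and in 15 of 84 neuron-like cells (17.9%, 10.4% to 27.7%). Progenitor-like cells thus had a pooled Ptbp1 level of 85.4 TPM, against 106 in microglia, 121 in mural and 131 in endothelial cells. Ptbp2 was present in both classes and lower in neuron-like cells on every plate, at 264, 293 and 200 TPM in progenitor-like and 260, 189 and 96.6 TPM in neuron-like cells, with a pooled ratio of 0.817. The ratio of Ptbp2 to Ptbp1 transcripts was 3.42, 3.63 and 1.67 in progenitor-like and 9.63, 5.55 and 4.0 in neuron-like cells. Elavl1 was lower in neuron-like cells on every plate, with a pooled ratio of 0.528. Of the 10 genes, 6 had a higher pooled level in neuron-like cells and 4 a lower one, and the same counts were found when a class needed at least 3 times as many transcripts of its own markers. The plates did not all keep their direction there. On plate 1, Ptbp2 had 243 TPM in progenitor-like and 256 in neuron-like cells. On plate 3, Elavl1 had 54.6 and 102. Ptbp3 was then lower and Nova2 higher in neuron-like cells on all plates. The pooled ratios of Elavl3, Elavl4 and Nova2 were 7.24, 3.86 and 4.13.

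**Figure D5:**
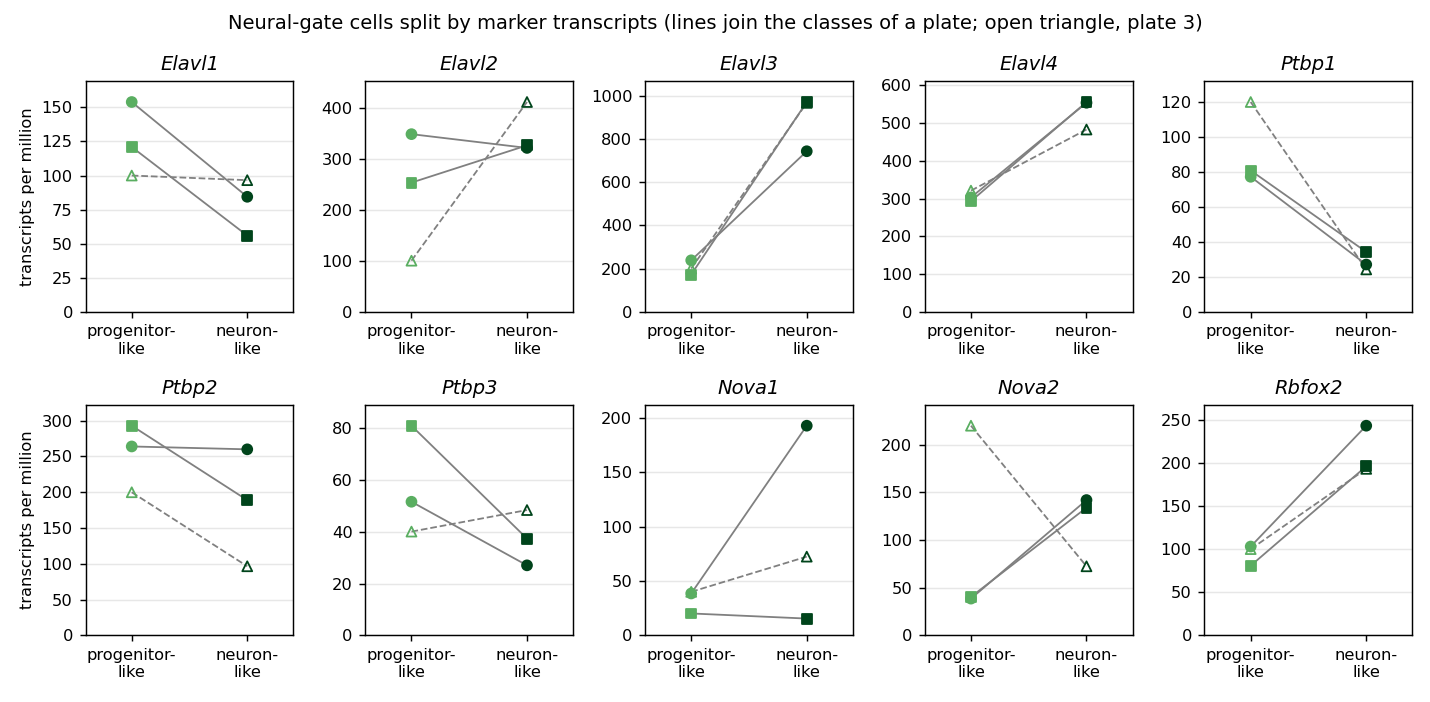
TPM in progenitor-like and neuron-like cells of the neural gate. Lines join the classes of a plate, and open triangles mark plate 3. Elavl3, Elavl4 and Rbfox2 are higher and Elavl1, Ptbp1 and Ptbp2 lower in neuron-like cells on all 3 plates, while Elavl2, Ptbp3, Nova1 and Nova2 differ in direction between plates.

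Lists of related regulators were set beside these genes. Of 22 other neural RNA-binding proteins, 18 were higher and 3 lower in neural bulk libraries, beside 32.9% and 31.2% of all genes, with a median log2 difference of 2.65. In the cells 14 of 20 were higher and 3 lower, beside 22.5% and 17.3%, with a median of 2.80. Msi1, an RNA-binding protein of neural progenitors, was higher by 6.77 ± 0.61 in bulk and 5.88 ± 0.44 in cells (SE, adjusted p = 3.8e-06 and 4.3e-17). The CELF splicing factor Celf3 was higher by 6.69 ± 0.35 and 5.11 ± 0.50 (SE, adjusted p = 5.9e-08 and 5.0e-13). Celf6 and Celf5 followed in bulk (6.52 and 6.33), and Srrm4, which promotes neural microexons, and Celf4 in the cells (5.63 and 4.71).

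Of the partners and competitors of the Ptbp proteins, all 6 tested were higher in neural bulk libraries, beside 32.9% of all genes, led by Raver2 (2.84 ± 0.93, SE, adjusted p = 0.0198, and 0.0623 to 0.0632 without any 1 of the neural libraries), Pcbp2 (2.26), Hnrnpl (1.92) and Matr3 (1.09), with a median of 1.5. In the cells 2 of 5 were higher, Matr3 (1.18 ± 0.24, SE, adjusted p = 3.9e-05) and Hnrnpll (0.65 ± 0.25, SE, adjusted p = 0.0346), beside 22.5% of all genes, while Hnrnpl had 0.57 and Pcbp2 0.43 (adjusted p = 0.0567 and 0.153). The Hnrnpll call was lost without any 1 plate (adjusted p = 0.0717 to 0.381) and under 4 other settings, among them DESeq2 (0.172).

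Among 8 other proteins that bind AU-rich elements, the decay factor Zfp36 was lower in neural cells in both assays. Its log2 difference was -5.04 ± 0.26 in bulk and -3.45 ± 0.42 in cells (SE, adjusted p = 5.8e-08 and 6.0e-10). In this list, 4 were higher and 3 lower in bulk, and 2 were higher and 3 lower in cells, out of 8 tested in each, beside 32.9% and 31.2% of all genes in bulk and 22.5% and 17.3% in cells. Khsrp, Hnrnpd and Tia1 were higher in bulk by 3.24, 2.80 and 1.63, while in the cells Khsrp had 0.17 (adjusted p = 0.632) and Hnrnpd 0.67 (adjusted p = 0.0259). In the cells, Zfp36l2 and Zfp36l1 were lower by -3.0 and -0.91 and Tia1 was higher by 1.62, and the Zfp36l1 call was lost without plate 1 or plate 2 (adjusted p = 0.0573 and 0.162).

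General splicing factors are given beside the shares of all genes, 32.9% higher and 31.2% lower in bulk and 22.5% and 17.3% in the cells. Of 10 SR proteins, 5 were higher and 2 lower in bulk (median 0.71), led by Srsf4 (3.41), Srsf1 (2.48), Srsf3 (1.38) and Srsf2 (1.28), which had -0.09 in the cells (adjusted p = 0.820). In the cells 3 of 9 were higher and 1 lower (median 0.38), with Srsf9 at -1.17, Srsf1 at 0.97, Srsf3 at 0.83 and Srsf10 at 0.66. Of these, Srsf10 was not called without any 1 plate (adjusted p = 0.0547 to 0.238) with DESeq2 (0.0796), without the filter (0.193) or with thinning (0.238), Srsf3 not without plate 1, plate 2 or the filter (0.209, 0.0712 and 0.0804), and Srsf9 and Srsf1 not without plate 1 (0.0702 and 0.0643). Of 15 hnRNP genes, 10 were higher and 1 lower in bulk (median 1.12) and 8 were higher and 1 lower in the cells (median 0.64). Hnrnpa0 (3.18), Hnrnph1 (2.80), Hnrnpa1 (2.65) and Hnrnpab (2.58) led in bulk (Hnrnpa0 and Hnrnpab had 1.01 and 0.83 in the cells) and Hnrnpa1 (1.12), Hnrnph1 (1.11), Hnrnpdl (1.06) and Hnrnpr (1.04) in the cells, where Hnrnpdl was not called without plate 1 or plate 2 (adjusted p = 0.0547 and 0.0609).

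The repressor Rest, which silences neuronal genes outside neurons, was lower in neural cells in both assays, by -1.89 ± 0.21 in bulk and -2.14 ± 0.33 in cells (SE, adjusted p = 2.1e-05 and 2.8e-07). The host genes of miR-124, a neuronal miRNA for which Ptbp1 is a known target, were higher. Mir124a-1hg had 4751, 5067 and 4377 normalized counts in neural libraries and at most 46.4 elsewhere, and Mir124-2hg differed by 6.42 ± 1.26 in bulk and 5.87 ± 0.37 in cells (SE, adjusted p = 0.00107 and 2.0e-20). The host gene Mir9-3hg was higher by 3.98 in bulk, and Rcor1, a partner of Rest, was higher by 0.51 ± 0.15 in bulk (SE, adjusted p = 0.0104) and lower by -0.81 ± 0.29 in the cells (SE, adjusted p = 0.0202), the latter a call lost with DESeq2 (adjusted p = 0.187) and without plate 1 or plate 2 (0.458 and 0.103). Of 6 genes, 4 were higher and 1 lower among the 5 tested in bulk, and 2 were higher and 2 lower among the 4 tested in cells, beside 32.9% and 31.2% of all genes in bulk and 22.5% and 17.3% in cells.

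Among regulators of epithelial and muscle splicing, Rbpms was lower in neural cells, by -6.12 ± 0.26 in bulk and -4.78 ± 0.54 in cells (SE, adjusted p = 1.5e-08 and 4.5e-11). Rbm20 and Rbm24 were higher in bulk by 5.65 and 4.74, from means of 384 and 373 normalized counts in neural libraries. For Rbm24, the mural libraries had 85.2, 377 and 112 against 331, 378 and 408 in neural libraries and overlapped with them, and endothelial and microglial libraries had at most 21.3. Of the 5 genes tested in bulk, 2 were higher and 1 lower, beside 32.9% and 31.2% of all genes, and of the 2 tested in cells, 1 was lower, beside 17.3%.

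The genes most like each member over the 12 bulk libraries were listed by Pearson's r of log2(normalized count + 1), as a description of libraries that also share kits. Mtmr9 (0.9799), Hsf2 (0.9792) and Tnks2 (0.9792) were nearest to Ptbp2, and Rab6b (0.9783), Lzts3 (0.9767) and Prdm4 (0.9682) to Ptbp1. Ucp2 (0.9940), Renbp (0.9879) and Cib1 (0.9863) were nearest to Ptbp3. For Nova2 these were Magi1 (0.9710), Gm6039 (0.9697) and Vash1 (0.9694), and for Nova1 Brd1 (0.9845), Tma16 (0.9836) and Srgap3 (0.9817). Bex1 (0.9872), Kalrn (0.9857) and Thra (0.9839) were nearest to Rbfox2. Pcgf2 (0.9886), Zmym2 (0.9876) and Lsm14b (0.9873) were nearest to Elavl2, Gm15459 (0.9894), Trp53bp1 (0.9869) and Map3k10 (0.9842) to Elavl3, and Dynll2 (0.9798) and Mad2l2 (0.9730) to Elavl4. The level gene Elavl1 had lower values, with 2900060B14Rik (0.8464), Bcdin3d (0.8317) and Asb8 (0.8294).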

How the data were processed

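The members and gene lists were chosen with earlier results of these data known. Wild-type mouse brains were sorted into 4 populations, sequenced in bulk (12 libraries) and as single cells by mCEL-Seq2 (3 plates, 994 wells of the 4 gates). The authors deposited normalized bulk counts (a signal of read counts divided by size factors) and single-cell tables of transcript numbers corrected for identifier collisions, which are entered here as other values. The submitters' processing notes name mm10, BWA 0.6.2-r126, STAR, featureCounts and DESeq2, without versions for the last 3. Bulk values up to 100 reads were whole multiples of 1 read (0.264 to 1.77 normalized counts): 100% of 123944 such values were whole within 0.01. The worth of 1 read was estimated from low values of the same libraries, and larger values were not checked. Library sums were 17638358 to 98414914 reads.

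Bulk contrasts used limma 3.58.1 (trend, no block) on log2(normalized count + 1) for genes with a mean of at least 10. Cells with more than 1500 transcripts (686, more than the study's own count under the same stated minimum) were summed per plate and gate (50776 to 959618 transcripts), rounded, and tested with edgeR 4.0.16 (TMM, filterByExpr). Tests were two-sided with Benjamini-Hochberg adjustment, called under 0.05, in R 4.3.3, and were tested on simulated data. The labels do not say that equal numbers mark the same animal, although the study reports collecting the populations together, with 3 brains in bulk. The main bulk fit uses no pairing, so its p-values measure the spread between these libraries. The study took its single cells from 3 wild-type brains in equal numbers, and the labels do not tie a plate to a brain. P-values in the cells thus measure the spread between plates. Correlations of residuals between libraries of the same number were -0.054 to 0.0801. Shares of cells carry exact binomial (Clopper-Pearson) 95% intervals, computed with scipy, which cover counting error only. Named were all 10 genes, up to 4 called genes per list with the largest neural difference, and the 3 genes most correlated with each member, of which 1 is not reported here. Gene positions came from GENCODE vM21 and promoter sequences from RefSeq. Doublets were not removed here. Mof knockout plates were not analysed here. Alternatives were other pseudocounts (0.25 and 8), minimums (none and 50), quantile normalization, a block for the brain or plate number, count tests (edgeR, DESeq2), thinning and leaving out each library or plate.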

Additional observations from a re-analysis of the deposited data

Results flagged for a closer look

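Ptbp1 moved in opposite directions in the assays. Neural minus the mean of the other 3 populations was 0.98 on the log2 scale in the bulk libraries and -1.39 in the sums of cells, with the same sign for every brain number in bulk and the opposite sign on every plate. The difference between the assays was not tested.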

How the results depend on the processing

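In bulk, the neural contrasts of the 10 genes kept their direction under all alternatives run, with one change of call: Elavl1 passed the threshold with quantile normalization (-0.30, adjusted p = 0.0371), so that 2 genes were lower rather than 1. Quantile normalization also moved the median of all genes in this contrast from 0.09 to -0.16. With a replicate block for the brain number, 8 genes were higher and 1 lower, as without it, beside 6417 and 6067 of 19765 genes. The pairs then gave 2 calls for mural against endothelial, 4 for mural against microglial and 6 for endothelial against microglial libraries. Libraries of the same number did not deviate together. On whole reads, edgeR called 6164 genes higher and 5443 lower. Leaving out a library gave 2 to 4, 3 to 6 and 5 to 6 called genes in the 3 pairs. The pair counts here carry no share of all genes, and nothing is read from them.

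In the cells, the plate as a replicate block gave 7 genes higher and 2 lower in the neural gate, beside 2295 and 2013 of 10322 genes. Leaving out a plate gave 6 to 7 higher and 1 to 2 lower, since Ptbp1 was called with all plates but not without plate 1 or plate 2. Among all 6427 to 10091 genes tested, 759 to 2242 were then higher and 744 to 2232 lower. Elavl1, never called, had -0.04 without the filter and -0.11 to 0.37 when a plate was left out. Called genes between the mural and endothelial gates fell to 0 with DESeq2, and were 0 with thinning, where Nova2, the 1 gene called, did not pass the filter and was not tested. Between mural and microglial gates there was 1 with DESeq2 and 1 with thinning, and 1 to 6 without a plate. Between endothelial and microglial gates there were 2 without the filter, 2 with DESeq2, 2 with thinning and 2 to 5 without a plate. These pair counts, too, carry no share of all genes, and nothing is read from them. Elavl4 turned sign under thinning against microglia, to 1.05 for mural and 1.84 for endothelial cells, where 1 microglial cell kept a transcript. The cause of these changes was not tested, apart from thinning, which leaves fewer transcripts by construction. Plate 3, with 43 cells, limits all values in cells.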

Other observations

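Some genes of the lists that the naming rule does not reach had a high level in a non-neural population; they were chosen after their values were seen. Rbfox3, a paralog of Rbfox2 whose protein is the neuronal marker NeuN, had 2118, 1963 and 2179 normalized counts in neural libraries and 1876, 1533 and 1608 in endothelial libraries, against 71.2 to 318 in mural and microglial libraries. In the cells it had 48.7, 116 and 32.8 TPM in the neural gate and 55.2, 31.4 and 14.2 in the endothelial gate, and at most 7.09 elsewhere. Its paralog Rbfox1 had at most 37.7 normalized counts in endothelial libraries and 1474 to 1528 in neural libraries.

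Celf2, a CELF splicing factor, had 13839 to 14706 normalized counts in neural and 11485 to 12590 in microglial libraries, against 186 to 2280 in the vascular libraries. In the cells it had 760, 1170 and 811 TPM in the neural and 357, 421 and 296 in the microglial gate, and at most 125 elsewhere. Mbnl1, a muscleblind splicing factor, was highest in microglia (23935 to 25529) and lowest in neural libraries (752 to 836), and in the cells it had 217 to 327 TPM in the microglial and 21.9 to 46.5 in the neural gate. Rbpms2 was highest in mural libraries, at 910 to 1571 normalized counts against at most 69.4 in any other library.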
